A study of Mus musculus with 6 samples.

Results

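Integrins and laminins were measured in RNA pulled down with the ribosomes of S100a10 cells in mouse cortex. The members were all genes named on the array as an integrin alpha or beta subunit (Itga or Itgb) or as a laminin chain (Lama, Lamb or Lamc). They were 35 of the 18193 genes named by a probe set with 1 gene symbol, namely 16 alpha subunits, 9 beta subunits and 10 laminin chains, and each was read from its brightest probe set. The binding protein genes Itgb1bp1 and Itgb3bp and the beta-like gene Itgbl1 were not counted as subunits, whereas Itgb2l was.

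All mice carried an S100a10 bacTRAP transgene, which places a tagged ribosomal protein under S100a10 regulatory DNA (line ES691), and all lacked p11, the protein of S100a10, in every tissue (p11 KO). The FLX group drank fluoxetine, a selective serotonin reuptake inhibitor, at 0.167 mg per ml in 1% saccharine, and the VEH group drank 1% saccharine alone, for 15 to 18 days. The strain was FVB backcrossed to C57BL/6 for 3 to 5 generations, and the sources used here give neither mouse age nor the number of mice per array. Each group had 3 arrays, labelled as biological replicates 1 to 3 (translating ribosome affinity purification, TRAP). No wild-type array was analysed here. Per the series text some cells other than neurons carry the tag too, so the RNA is that of a mixture, in which fewer cells of a type and less RNA per cell cannot be told apart.

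Integrins are paired alpha and beta receptors at the cell surface that bind matrix proteins outside the cell and join them to actin inside it. Laminins are trimers of an alpha, a beta and a gamma chain and form the sheet-like network of basement membranes. In the cortex such membranes lie under the pia and around blood vessels, where the endfeet of astrocytes are anchored to them, and neurons and microglia carry integrins of their own.

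The replicate 3 arrays differed more from the other arrays than FLX differed from VEH arrays of the same number. Over all tested probe sets, replicates 1 and 2 of both groups correlated at r = 0.987 to 0.995, the replicate 3 arrays correlated with them at 0.867 to 0.916, and the replicate 3 arrays with each other at 0.973. The count of probe sets with a value of 50 or more was 21158 to 21682 per array. Of the fixed markers of deep-layer pyramidal cells, 8 of 8 named on the array passed the filter described below. Markers of other cell types were present too, with 14 of 14 leptomeningeal fibroblast, 10 of 10 astrocyte, 10 of 12 microglia and macrophage, 5 of 10 pericyte and smooth muscle and 5 of 11 endothelial genes passing it.

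The filter asked for a mean of 50 or more in FLX or in VEH, and kept 17 of the 35 members and 22200 probe sets in all. Among them were 7 alpha subunits (Itga2b, Itga3, Itga4, Itga6, Itga8, Itgae and Itgav), 5 beta subunits (Itgb1, Itgb2, Itgb4, Itgb5 and Itgb8) and 5 laminin chains (Lama1, Lama2, Lama4, Lamb1 and Lamb2). Of the 18 untested members, 12 stayed under 50 on every array, between 4.81 and 47.9. These were Itga2, Itga5, Itga7, Itgal, Itgam, Itgax, Itgb2l, Itgb3, Itgb6, Lama5, Lamc1 and Lamc3. The leukocyte alpha chains Itgam and Itgax, partners of Itgb2, lay at 5.10 to 6.27 and at 6.53 to 8.60. The other 6 untested members, Itga1, Itga9, Itga10, Itgb7, Lama3 and Lamb3, reached 50 on at least 1 array. Just inside the limit, Itgae had group means of 50.1 and 50.0.

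Promoter sequence was found for 23 of the 35 members and for 11 of the 17 tested ones in the RefSeq promoter table of GRCm38.p6. Shown here are the 250 bases before the annotated start of the 3 members with the smallest p in the test of replicate number described below among the 11 tested members with an entry, and of the one with the largest, because the first 3 moved together over the arrays and the last did not. The windows are chr16:33829415-33829664 (plus strand), chr9:108479612-108479861 (plus strand), chr8:128685404-128685653 (plus strand) and chr11:102469884-102470133 (minus strand). Each is written 5′ to 3′ on the strand of its gene, with GC boxes in capitals, that is GGGCGG on either strand.
Itgb5: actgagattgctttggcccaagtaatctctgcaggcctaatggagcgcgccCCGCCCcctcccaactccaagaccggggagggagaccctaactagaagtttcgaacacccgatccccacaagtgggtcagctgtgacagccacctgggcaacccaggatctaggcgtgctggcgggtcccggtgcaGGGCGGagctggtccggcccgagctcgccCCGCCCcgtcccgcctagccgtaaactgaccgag
Lamb2: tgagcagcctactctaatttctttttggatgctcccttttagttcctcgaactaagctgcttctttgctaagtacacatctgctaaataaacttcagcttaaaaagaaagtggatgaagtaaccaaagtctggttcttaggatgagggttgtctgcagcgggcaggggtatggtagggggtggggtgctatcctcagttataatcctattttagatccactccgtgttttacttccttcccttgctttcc
Itgb1: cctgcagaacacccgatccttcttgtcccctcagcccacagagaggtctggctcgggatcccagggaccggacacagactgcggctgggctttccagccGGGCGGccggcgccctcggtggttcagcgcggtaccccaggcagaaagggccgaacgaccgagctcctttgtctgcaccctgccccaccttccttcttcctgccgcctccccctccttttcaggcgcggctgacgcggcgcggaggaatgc
Itga2b: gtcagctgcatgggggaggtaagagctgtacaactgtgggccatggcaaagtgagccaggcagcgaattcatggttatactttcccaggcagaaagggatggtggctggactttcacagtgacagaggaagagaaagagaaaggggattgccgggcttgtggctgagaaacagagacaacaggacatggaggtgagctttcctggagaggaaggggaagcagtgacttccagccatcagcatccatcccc
The Itgb5 window held 3 GC boxes, the Itgb1 window 1, and the Lamb2 and Itga2b windows 0. The GC content was 65.2% for Itgb5, 68% for Itgb1, 54% for Itga2b and 43.6% for Lamb2. A GC box was in 32.7% of all 32851 promoter windows of this length and in 5 of the 11 tested members (Itga3, Itga4, Itgb1, Itgb5 and Lamb1). A CCAAT box (CCAAT on either strand) was in 33.8% of all windows and in Itga3, Itgb8 and Lamb1. TATAAA and the AP-1 letters TGACTCA were in 12.4% and 4.46% of all windows and in 0 of the 11 members. Of the 7 members with a window that passed the replicate test, 3 held a GC box and 2 a CCAAT box. A member was counted if any of its windows held the letters, whereas the percentages are shares of single windows, so the 2 are not directly comparable. No match says only that these letters are not in the window.

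Fluoxetine was compared with vehicle to ask how the drug acts on ribosome-bound mRNA of these cells in mice without p11. No member was called different between FLX and VEH, and laminin and integrin values in the 2 groups overlapped for every tested member. The log2 difference (FLX minus VEH) ran from -0.34 for Lama1 to 0.29 for Itga4, with standard errors of 0.18 to 0.87, and the smallest unadjusted p in limma was 0.338, for Itga3. Limma called 0 of 17 members and 0 of 22200 probe sets (0%), with 83 probe sets (0.374%) and 0 members at an unadjusted p under 0.05. With the replicate number as a block the calls were again 0 and 0, with 1764 probe sets (7.95%) and 0 members at an unadjusted p under 0.05. The members' standard errors were then 0.16 to 0.30, and their smallest p in limma was 0.149 unadjusted and 0.663 adjusted.

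The difference was positive for 9 of the 17 members, against 57.2% of all tested probe sets. Its median was 0.00 for the members and 0.04 for all probe sets, and leaving out 1 array moved that of the members to 0.33 (FLX replicate 3 left out), 0.22 (VEH replicate 2), -0.33 (FLX replicate 2) or -0.41 (VEH replicate 3). The groups did not overlap, with FLX higher, for 0 members and 2.55% of probe sets, and with FLX lower for 0 members and 1.79% of probe sets. A difference of 1.5-fold or more was found for 0 members and 3.68% of probe sets.

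**Figure D1:**
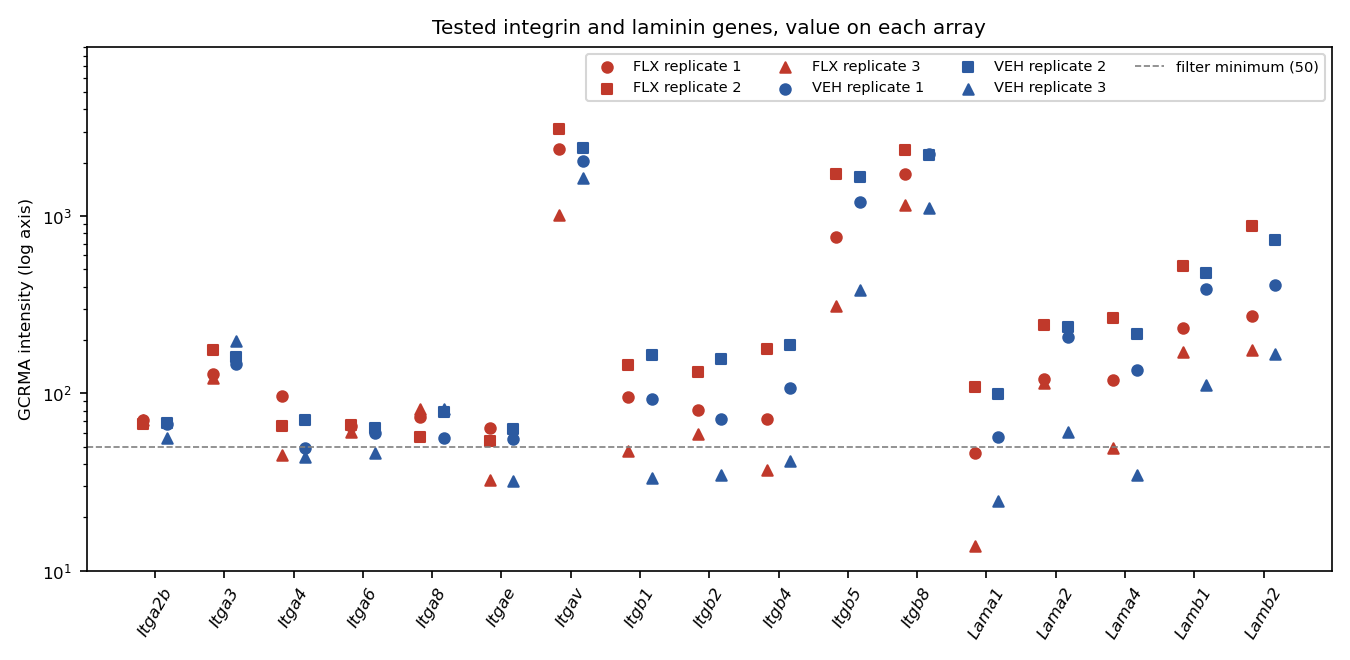
Value of each tested integrin and laminin gene on each array (GCRMA intensity, log axis). Red marks are FLX and blue marks VEH arrays, circles, squares and triangles are replicates 1, 2 and 3, and the dashed line is the filter minimum of 50. For the 5 laminin chains and for Itgav, Itga6, Itgb1, Itgb2, Itgb4 and Itgb5 the square is highest and the triangle lowest in both groups. Red and blue overlap for every gene.

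Among tested members the widest ranges over the arrays were those of the laminin alpha chains Lama1 and Lama4. Lama4, an alpha chain of vessel basement membranes, had values of 119, 267 and 49.4 for replicates 1 to 3 of FLX and of 135, 216 and 34.8 for those of VEH. Replicate 2 was highest and replicate 3 lowest in both groups, which overlapped, and the log2 difference of FLX from VEH was 0.21 (SE 0.87, n = 3 arrays per group). Lama1, an alpha chain of the pial membrane, had 45.8, 109 and 13.8 in FLX and 56.7, 99.7 and 24.6 in VEH replicates 1 to 3, a 7.90-fold range over the 6 arrays. Lama1 followed the same order in both groups, and its difference was -0.34 (SE 0.86).

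Lama2, the alpha chain that binds dystroglycan strongly, had 121, 245 and 114 in FLX and 207, 236 and 60.5 in VEH replicates 1 to 3. Its replicate 1 and 3 arrays lay near each other in FLX and far apart in VEH, and its difference was 0.06 (SE 0.61). Lamb1, a beta chain found in many basement membranes, had 232, 519.7 and 172 in FLX and 389.6, 475 and 112 in VEH replicates 1 to 3. Its difference was 0.00 (SE 0.68), the mean of -0.74, 0.13 and 0.62 in replicates 1, 2 and 3. Lamb2, the other tested beta chain and one enriched at vessels and synapses of muscle, had 272, 882 and 177 in FLX and 407, 734 and 166 in VEH replicates 1 to 3. Replicate 2 stood above both others in each group, and the difference was -0.08 (SE 0.77).

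Within replicate numbers the members did not keep a direction. The FLX array was below the VEH array for 9 of 17 members in replicate 1 (48.3% of probe sets), for 7 in replicate 2 (51.5%) and for 5 in replicate 3 (39.9%). Among laminin chains it was below in replicate 1 for 5 of 5, with a median log2 difference of -0.58. In replicate 2 it was above for 5 of 5, with a median of 0.13, and in replicate 3 above for 4 of 5, with a median of 0.51. Whether these differences differ by replicate number was not tested, since each rests on 1 array per group. Leptomeningeal fibroblast markers had medians of -0.56, 0.14 and -0.51 in the same pairs, endothelial markers -0.51, -0.05 and 0.43, and microglia and macrophage markers -0.30, -0.10 and 0.57. Pericyte and smooth muscle markers had -0.98, -0.28 and -0.42, and astrocyte markers -0.02, 0.26 and 0.36. Their part in the laminin values was not tested.

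Of the 5 tested beta subunits, Itgb1, Itgb2, Itgb4 and Itgb5 had the laminin order of arrays, with replicate 2 highest and replicate 3 lowest in both groups, and Itgb8 did not. Itgb5, which pairs with Itgav as a vitronectin receptor, had 767, 1729 and 310.2 in FLX and 1209, 1664 and 383 in VEH replicates 1 to 3. The order of replicates was the same in both groups, and the difference was -0.30 (SE 0.80). All 4 of its probe sets were tested, with differences from -0.30 to -0.07 and the same order of replicates. Itgb4, the beta chain of the laminin receptor formed with Itga6, had 71.7, 178 and 36.8 in FLX and 107, 186 and 41.5 in VEH replicates 1 to 3, lower in FLX in all 3 replicate numbers. It was the only tested member lower in all 3, against 13.6% of probe sets, and its difference was -0.27 (SE 0.76), or the same with an SE of 0.17 and an adjusted p of 0.668 in limma's fit with the replicate block.

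Itgb1, the beta subunit with the most alpha partners and the main beta chain of laminin and collagen receptors, had 95.1, 144 and 47.3 in FLX and 92.7, 165 and 33.4 in VEH replicates 1 to 3. The FLX values lay within the range of the VEH values, with a difference of 0.11 (SE 0.68). Its other tested probe set had the same order of replicates. Itgb2, the beta chain of leukocytes, which microglia carry, had 81.0, 132 and 59.3 in FLX and 71.5, 157 and 34.6 in VEH replicates 1 to 3, with a difference of 0.24 (SE 0.60). Itgb8, which with Itgav activates latent TGF-beta in the developing brain, had 1722, 2369 and 1149 in FLX and 2238, 2215 and 1118 in VEH replicates 1 to 3. Here replicate 3 was lowest in both groups while replicates 1 and 2 of VEH lay together, and the difference was -0.08 (SE 0.40).

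Of the 7 tested alpha subunits, Itgae and Itgav passed the replicate test. Itgav, the partner of Itgb5 and Itgb8 and a receptor chain for vitronectin and fibronectin, had 2398, 3083 and 1015 in FLX and 2057, 2415 and 1639 in VEH replicates 1 to 3. Replicate 2 was highest and replicate 3 lowest in both groups, as for the laminins. Replicate 3 lay further below the others in FLX than in VEH, and the difference was -0.04 (SE 0.45). Itgae, the alpha chain of an E-cadherin receptor on lymphocytes, was read from a probe set that may match several transcripts (s_at type) and had 63.8, 54.0 and 32.4 in FLX and 55.1, 63.0 and 31.9 in VEH replicates 1 to 3. Its replicate 3 arrays lay under the filter minimum in both groups, and its difference was 0.01 (SE 0.38). The brightest probe set of Lamb1 is of the s_at type too, and that of Itgb5 of the x_at type, so the same caution applies to them.

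The other 5 tested alpha subunits showed no common order of arrays. Itga2b, the alpha chain of the platelet fibrinogen receptor, ran from 56.2 to 70.6 over the 6 arrays, a 1.26-fold range near the filter minimum. Whether its values lie above background was not tested. Itga6, the partner of Itgb4 and Itgb1 in laminin receptors, ran from 46.3 to 66.6 and had the laminin order of arrays over this narrow range. It was the only tested member higher in FLX in all 3 replicate numbers, against 19.6% of probe sets, with a difference of 0.20 (SE 0.21). Itga3, another laminin receptor chain, ran from 122 to 198 and had its highest value in VEH replicate 3, with a difference of -0.25 (SE 0.24). Of its dimmer, untested probe sets, 1 had its lowest value on that array (13.1, against 29.9 to 50.6 elsewhere) and the other its highest (27.5). Itga4, which binds Vcam1 and fibronectin, ran from 43.5 to 96.3, and its pair of replicate 1 differed by 0.97 against -0.12 and 0.04 in the others. Itga8, which binds nephronectin, ran from 56.1 to 81.6, with a difference of -0.02 (SE 0.25).

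**Figure D2:**
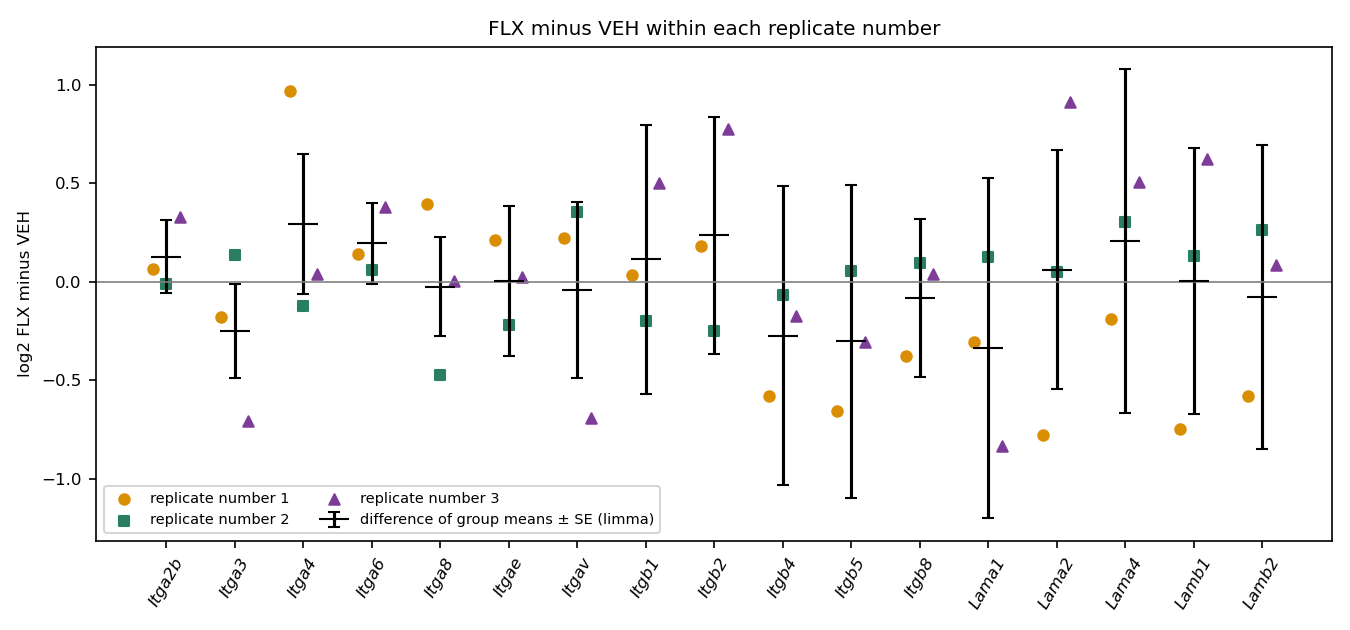
Log2 difference of FLX from VEH for each tested gene, within replicate numbers 1 (circles), 2 (squares) and 3 (triangles). Black bars are the difference of the group means with its standard error from limma's fit of treatment alone, n = 3 arrays per group. They include the spread between replicate numbers. The laminin circles all lie below 0 and the laminin squares all above it, and every difference of means is between -0.34 and 0.29.

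Values of most tested members differed by replicate number. In limma's F test of replicate number, with treatment in the model, 12 of 17 members passed (70.6%), against 43.1% of all 22200 probe sets. They were 5 of 5 laminin chains, 5 of 5 beta subunits and 2 of 7 alpha subunits, Itgae and Itgav. The labels do not say what a replicate number stands for, and the test does not say which number differs, so the directions below are descriptions. The smallest adjusted p values were 4.77e-04 for Lama4, 6.26e-04 for Itgb4, 6.92e-04 for Itgb5 and 8.30e-04 for Lama1. Without both replicate 3 arrays, 0 members and 0 probe sets passed in limma, with adjusted p values of 0.216 to 0.977 for the 12 genes. Itgav lost its call without FLX replicate 2 or FLX replicate 3 (adjusted p = 0.0683 and 0.0755 in limma), with no filter (0.106) and with equal array medians (0.0896). Lama2 lost it without VEH replicate 3 (adjusted p = 0.0710 in limma) and with no filter (0.107), and Itga4 gained one without VEH replicate 1 (0.0212).

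Replicate 3 was below the mean of replicates 1 and 2 in both groups for 14 of 17 members and 38.8% of probe sets. Among those 14 were all 12 members that passed, and 24% of all probe sets passed with that direction, against 19.1% that passed with replicate 3 above in both groups. The laminin chains were lower by medians of -1.47 in FLX and -1.87 in VEH (log2), the beta subunits by -1.30 and -1.77, and the alpha subunits by -0.31 and -0.41, whereas the medians of all probe sets were 0.10 and -0.03. Lama1 was at -2.36 and -1.61, Lama4 at -1.85 and -2.30, and Itgb5 at -1.89 in both groups. Itgb8 was at -0.81 and -0.99 and Itgav at -1.42 and -0.44. A difference of 1 or more below in both groups was found for 7 of 17 members and for 14.7% of probe sets.

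Between replicates 1 and 2, replicate 2 was higher in both groups for 12 of 17 members, against 25.6% of probe sets. The laminin chains were higher in replicate 2 than in replicate 1 by medians of 1.17 in FLX and 0.67 in VEH, with Lamb2 at 1.70 and 0.85. The full order, with replicate 2 highest and replicate 3 lowest in both groups, was seen in 11 of 17 members and 14.1% of probe sets. Itgb8 and Itgae passed the test without it.

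Members with several tested probe sets did not always give the same call. The replicate test was passed by 4 of 4 probe sets of Itgb5, 2 of 2 of Itgb1 and 1 of 2 of Lamb1. The other Lamb1 probe set had 90.4, 179 and 70.4 in FLX and 133, 142 and 133 in VEH replicates 1 to 3, with an adjusted p of 0.179 in limma's test of replicate number. Replicate 3 was thus low in FLX and level with the others in VEH, unlike the brighter Lamb1 probe set.

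Among the 18 untested members, 3 passed the replicate test in a fit of all 45037 probe sets with no filter. That share is near the 18.9% of all probe sets that passed there. Itga1, a collagen and laminin receptor chain, had 34.0, 86.5 and 9.04 in FLX and 52.9, 68.5 and 9.19 in VEH replicates 1 to 3 (adjusted p = 0.00502 in limma). Itga10, a collagen receptor chain, had 27.3, 71.7 and 9.29 in FLX and 33.5, 52.1 and 8.76 in VEH (adjusted p = 0.00458 in limma). Both were lowest in replicate 3. Lama3, the alpha chain of epithelial laminins, went the other way, with 35.6, 28.5 and 62.8 in FLX and 24.0, 21.6 and 43.6 in VEH replicates 1 to 3 (adjusted p = 0.0140 in limma).

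**Figure D3:**
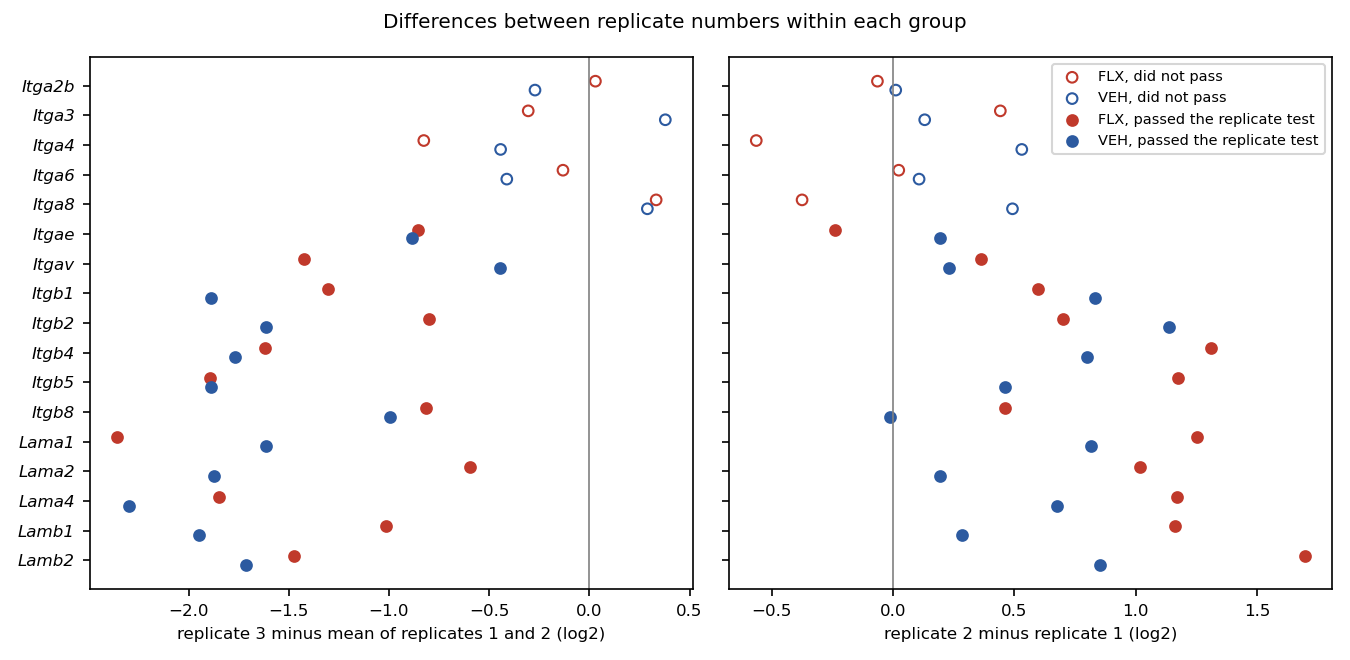
Log2 difference of replicate 3 from the mean of replicates 1 and 2 (left) and of replicate 2 from replicate 1 (right) for each tested gene, red for FLX and blue for VEH. Filled marks are the 12 genes that passed limma's test of replicate number, and all 24 filled marks in the left panel lie below 0.

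Other matrix ligands of integrins were described in the same way. Of 19 such genes named on the array 12 were tested, 0 were called between FLX and VEH, and 9 of the 12 passed the replicate test (43.1% of all probe sets), all 9 lower in replicate 3 in both groups (24% of all probe sets passed and were lower). Fn1, fibronectin, had 675, 2211 and 99.2 in FLX and 890.2, 1839 and 161 in VEH replicates 1 to 3. Vtn, vitronectin, the ligand of the receptor of Itgav and Itgb5, had 1562, 3945 and 251 in FLX and 2521, 3497 and 342 in VEH. Fn1 and Vtn had the order of replicates of the laminins. Adam9, a surface protease that binds integrins, had 611 and 349 in the replicate 3 arrays of FLX and VEH and 2332 to 3012 in the other arrays. Between treatments the smallest unadjusted p values were those of Reln, the secreted signal of layer organisation, at 0.55 (SE 0.31), of Npnt, nephronectin, at 0.59 (SE 0.44), and of Ccn1, a matrix-associated signal, at -0.46 (SE 0.41).

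Of 23 other laminin receptors and basement membrane partners on the array, 20 were tested and 0 called between treatments, and 16 of the 20 passed the replicate test (43.1% of all probe sets). Of these, 14 were lower and 2 higher in replicate 3 in both groups, against 24% and 19.1% of all probe sets. Nid1, nidogen, which links laminin to collagen IV, had 255, 736 and 31.0 in FLX and 457, 609.9 and 53.9 in VEH replicates 1 to 3. The membrane proteoglycans Sdc1 and Sdc4 were at 19.0 and 33.8 in FLX replicate 3 and at 21.1 and 18.3 in VEH replicate 3, with 99.0 to 167 and 132 to 298 elsewhere. Dag1, dystroglycan, the non-integrin laminin receptor, had 1585, 2348 and 584 in FLX and 1526, 2086 and 716 in VEH. The 2 genes that passed and were higher in replicate 3 were Dmd (dystrophin), at 4137 and 2590 against 958 to 1409 elsewhere, and Dtna (dystrobrevin), at 2563 and 1834 against 633 to 896. Utrn and Sntb1 were above in replicate 3 in both groups too but did not pass (adjusted p = 0.404 and 0.478 in limma's test of replicate number). Dag1, Dmd and Dtna were singled out after their values were seen. The smallest unadjusted p values between treatments were those of Sgcb at 0.33 (SE 0.26), Utrn at 0.24 (SE 0.22) and Sntb1 at -0.16 (SE 0.20).

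The adaptors and kinases inside the cell, by which integrins reach actin, had no common direction. Of 31 on the array 30 were tested and 0 called between treatments. The replicate test was passed by 15 of the 30, near the 43.1% of all probe sets. Of these, 8 were lower and 7 higher in replicate 3 in both groups, against 24% and 19.1% of all probe sets, with medians over the list of -0.01 in FLX and -0.23 in VEH. Flna, filamin A, had 87.5 and 103 in replicate 3 of FLX and VEH and 780.1 to 1249 in the other arrays, and Tns2, a tensin, had 106 and 184 against 367 to 599. Parvb, an actin-binding partner of integrin-linked kinase, had 305 and 269 in replicate 3 and 67.5 to 75.6 in the others. Between treatments Cib1, an integrin-binding calcium sensor, was at -0.61 (SE 0.43), Fyn, a Src-family kinase, at 0.23 (SE 0.18) and Tns3 at 0.28 (SE 0.27).

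Cell type markers were described by replicate number in the same way. The summed level of the 14 leptomeningeal fibroblast markers was 30831 in FLX replicate 3 and 50620 in VEH replicate 3, against 116072 to 168947 in the other arrays, with 13 of 14 genes passing the replicate test, all 13 lower in replicate 3 in both groups, and medians of -3.72 and -3.46. The 10 pericyte and smooth muscle markers summed to 2178 to 5229 in FLX and 2290 to 8534 in VEH arrays, with 4 (Myh11, Abcc9, Kcnj8 and Notch3) under 50 on every array. The 11 endothelial markers summed to 385 to 659 in FLX and 331 to 747 in VEH arrays, with 5 (Pecam1, Flt1, Tek, Emcn and Vwf) under 50 on every array. The 12 microglia and macrophage markers summed to 5578 to 11837 in FLX and 4114 to 12331 in VEH, and the 10 astrocyte markers to 14424 to 40257 and 10891 to 36936. No marker was listed at 0. Tested markers of the other lists that passed the replicate test and were lower in replicate 3 in both groups were counted too. They were 3 of 5 for pericytes and smooth muscle and 3 of 5 for endothelium. Microglia and macrophages had 6 of 10 and astrocytes 5 of 10. In the same 4 lists 1, 0, 0 and 2 passed and were higher. Over all probe sets 24% passed and were lower in both groups, and 19.1% passed and were higher. The replicate 3 medians in FLX and VEH were -2.01 and -2.47 for pericytes and smooth muscle and -0.59 and -1.89 for endothelium. They were -0.78 and -1.59 for microglia and macrophages and -0.17 and -0.65 for astrocytes. Of the choroid plexus and ependyma markers 3 of 3 tested passed and were lower, with a median of -1.25 in both groups. The summed level of the oligodendrocyte markers was higher in replicate 3, at 66421 and 65432 against 24529 to 28275 elsewhere, and so was that of deep-layer pyramidal cells, at 28936 and 23353 against 14368 to 17906. Their genes were mixed. Of 7 tested oligodendrocyte markers 4 passed and were higher in replicate 3 in both groups and 2 (Mag and Cldn11) passed and were lower, and of 8 pyramidal markers 5 were higher and 1 (Slc17a7) lower. The part of these cell types in the integrin and laminin values was not tested.

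**Figure D4:**
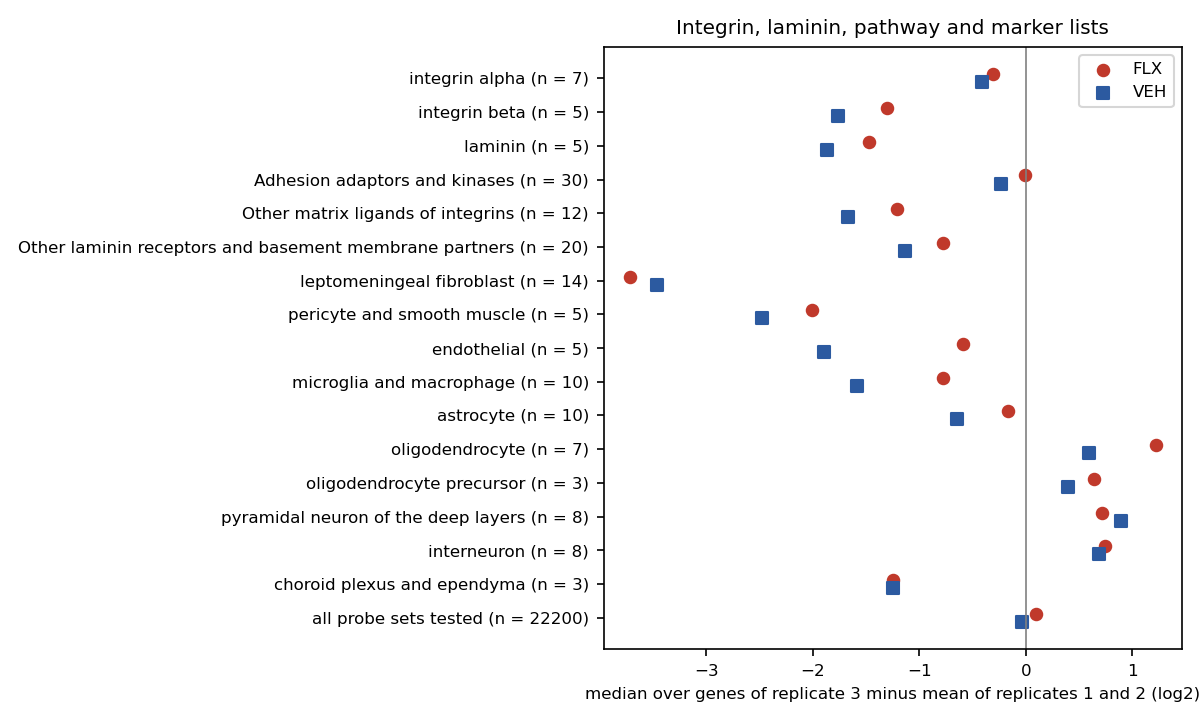
Median over the genes of each list of the log2 difference of replicate 3 from the mean of replicates 1 and 2, red circles for FLX and blue squares for VEH, with the number of genes tested in each list. Laminins, beta subunits and matrix ligands lie between -1.87 and -1.21, and leptomeningeal markers at -3.72 and -3.46. Pericyte and smooth muscle markers lie at -2.01 and -2.47, and endothelial, microglia, astrocyte and choroid plexus markers are below 0 too. Oligodendrocyte, pyramidal and interneuron markers lie above 0.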

How the data were processed

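Ribosome-bound RNA (15 ng per sample) was amplified in 2 cycles with an Affymetrix kit, labelled with biotin and hybridised to 6 arrays in 1 colour, per the labels' protocols. The deposited values are intensities on a linear scale, made by the authors with GCRMA per the submitters' processing notes. No version or setting is stated there. Values ran from 1.60 to 76587, hence the linear scale. The number of arrays limits the precision.

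Of 45101 probe sets 64 controls were left out, and 34945 of the others have 1 gene symbol in the platform annotation, 932 several and 9160 none. Limma 3.58.1 in R 4.3.3 was fitted on log2 values with no pseudocount to all probe sets with a mean of 50 or more in at least 1 group, with two-sided tests, default moderation and Benjamini-Hochberg adjustment over all 22200, at 0.05. One fit had treatment alone, another treatment and replicate number, from which the F test of replicate number was taken. Errors of differences are limma's SE from the fit with treatment alone unless the block is named, so they include the spread between replicate numbers. The fits were tested on simulated data in which few probe sets differed by replicate number, unlike these arrays. That run therefore does not give the power of the FLX versus VEH test here. Figures were drawn with matplotlib 3.10.9.

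FLX and VEH arrays share replicate numbers. Deviations from the group means correlated at r = 0.70, 0.84 and 0.87 between arrays of the same number, above the limit of 0.1 set for calling them paired, but replicate 1 of each group also correlated with replicate 2 of the other, at 0.64 and 0.76. The members and lists were chosen with earlier results of these data known. Every member that passed the filter is named, with array values for those that passed the replicate test, and the 3 genes of each pathway list with the smallest unadjusted p in each test. Lists are described by counts and medians. The submitters' list of neuronal probe sets was not used.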

Additional observations from a re-analysis of the deposited data

How the results depend on the processing

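No alternative gave a call between FLX and VEH: with no filter, a minimum of 100, log2(value + 16), the replicate block (0 calls), trended and robust moderation, equal array medians, each array left out, both replicate 3 arrays left out or all tested probe sets of a gene averaged, 0 probe sets and 0 members passed in limma. The block therefore changed no call. The direction of a member's difference rested on single arrays. With 1 array left out the members' median ran from -0.41 (without VEH replicate 3) to 0.33 (without FLX replicate 3), and was -0.33 without FLX replicate 2 and 0.22 without VEH replicate 2.

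The sign turned for 13 of the 17 members, all but Itga2b, Itga3, Itga4 and Itga6. With 1 array left out the differences ran from -0.20 to 0.12 for Itga8, -0.29 to 0.29 for Itgae, -0.37 to 0.43 for Itgav, -0.52 to 0.64 for Itgb1, -0.30 to 0.79 for Itgb2, -0.87 to 0.27 for Itgb4, -0.93 to 0.33 for Itgb5, -0.41 to 0.19 for Itgb8, -1.04 to 0.45 for Lama1, -0.56 to 0.42 for Lama2, -0.56 to 0.82 for Lama4, -0.65 to 0.40 for Lamb1 and -0.74 to 0.42 for Lamb2. Without both replicate 3 arrays they were 0.29 for Itgav, -0.081 for Itgb1, -0.036 for Itgb2, -0.36 for Lama2, -0.31 for Lamb1 and -0.0038 for Itgae. With equal array medians Itgae was at -0.018 and Lamb1 at -0.020, with log2(value + 16) Lamb1 was at -0.0073, and averaged over its probe sets Lamb1 was at -0.19.

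The replicate test called 8190 to 11071 probe sets and 11 to 13 members with 1 array left out, and 0 and 0 without both replicate 3 arrays, where 4 arrays and 1 residual degree of freedom remain (alternatives added after seeing the data). Apart from that setting, 10 of the 12 called members passed under every alternative in which they were tested, which for Itgae, Itgb1, Itgb2 and Lama1 leaves out the minimum of 100. Itgav did not pass with no filter, with equal array medians, without FLX replicate 2 or without FLX replicate 3 (adjusted p in limma up to 0.106), and Lama2 did not with no filter or without VEH replicate 3 (up to 0.107). Itga4 passed without VEH replicate 1 alone (adjusted p = 0.0212 in limma). With a minimum of 100, 9 members were left and 8 passed. Values near the lower end of the arrays, such as Itga1 and Itga10 in replicate 3, may lie at background and bound the size of a fold there. Replicate 3 values were also under 50 in both groups for Lama1, Lama4, Itgb1, Itgb4, Itga4 and Itgae, and in VEH for Itgb2 and Itga6.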
